A study of Mus musculus with 8 samples.

Results

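The respiratory chain of liver mitochondria begins with complex I, the NADH:ubiquinone oxidoreductase. The transcripts described here are the nuclear genes of its subunits and assembly factors whose array symbol starts with Ndufa, Ndufb, Ndufc, Ndufs, Ndufv, Ndufaf or Ndufab. A gene counted when a probe-set carried its symbol alone, and 33 genes of the 14860 with a probe-set of their own met this rule. They were 5 core subunits, 22 accessory subunits and 6 assembly factors. Hepatic RNA was taken after 6 weeks of liquid diet from 8 wild type male C57Bl6J mice, of which 4 received alcohol and 4 were their pair-fed controls, and each mouse had an array of its own. Both groups were 6 weeks old at the start and carried no engineered allele. Alcohol-fed mice (WA-811, WA-817, WA-833 and WA-836) received Lieber-DeCarli liquid diet with 2.06% alcohol for 3 days, 4.18% for 4 days and 6.2% for 5 weeks, by which time alcohol made up 35% of calories. Control mice, in the order WC-820, WC-824, then WC-834, then WC-840, received a diet matched in calories that held maltose and dextrin. Values below are given in these orders of the mice.

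Complex I is an L-shaped enzyme of the inner mitochondrial membrane that takes electrons from NADH, passes them along iron-sulfur clusters in its matrix arm to ubiquinone, and pumps protons through its membrane arm. The core subunits carry out catalysis and are shared with bacteria, whereas the accessory subunits surround them and are needed for assembly or stability. Assembly factors help to build the enzyme and are absent from the finished complex. In hepatocytes, the oxidation of ethanol yields NADH, and complex I reoxidizes the NADH of the mitochondrial matrix.

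The arrays were summarized by RMA into 1 log2 value for each probe-set and array, after correction of the background and normalization across arrays. A difference of 1 on this scale is therefore a doubling. The median of an array was 5.10 to 5.14 in alcohol-fed mice and 5.04 to 5.08 in control mice. Pairs of arrays correlated at 0.983 to 0.984 among alcohol-fed mice, at 0.984 to 0.987 among control mice and at 0.977 to 0.983 across the diets, taken over probe-sets that are not independent of each other. The liver label fits the hepatocyte marker *Alb*, which averaged 13.51 ± 0.05 on alcohol and 13.49 ± 0.04 on control diet (SD, n = 4 each). RMA gives no detection call, and values of different probe-sets cannot be ranked as amounts of RNA. For the members the means over the 8 arrays ran between 4.94 for *Ndufaf5* and 10.8 for *Ndufs7*, with *Ndufa7* (5.38) next to the low end and *Ndufb3* (10.6) next to the high end.

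RefSeq lists 49 protein-coding mouse genes under these symbols. Of these, 33 had a probe-set of their own, 2 shared one with other genes and 14 were not read here under their symbol. Core subunits encoded in mitochondrial DNA carry other symbols and fall outside the rule.

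RefSeq promoters, 250 bases before to 50 bases after an annotated transcript start, were matched for 30 of the 33 members. This start need not be the outermost base of the gene. They were searched on both strands for 4 motifs of factors known to act on genes of the respiratory chain. A gene with several promoters counted when any of them held the motif. The sequence CGCATGCG of NRF1 was found in 3 members (10.0%, *Ndufa8*, *Ndufaf4* and *Ndufaf5*), against 2.07% of all 27025 genes with a promoter. AAGATGG of YY1 was in 6 members (20%), against 7.28% of all these genes. In all 6 it lay within the 50 bases after the start. The sequence contains ATG, and whether it was a start codon there was not tested. CCGGAAG of the ETS family was in 3 (10.0%), against 9.93%, and AAGGTCA of the estrogen-related receptors was in 1 (3.33%), against 5.38%. Of the 10 members with a promoter that were lower on alcohol at an adjusted p under 0.05, none held the NRF1 sequence, and the other 3 motifs were each found in 1. One promoter is shown for each motif, with the motif or its reverse complement in capitals. *Ndufb2* is the member with the largest fall, *Ndufb8* another that fell, *Ndufs8* a core gene and *Ndufa8* an accessory gene, neither of them called. The build is GRCm38.p6 and each runs 5′ to 3′ on the strand of its gene.
*Ndufb2*, chr6:39592315-39592614, plus strand: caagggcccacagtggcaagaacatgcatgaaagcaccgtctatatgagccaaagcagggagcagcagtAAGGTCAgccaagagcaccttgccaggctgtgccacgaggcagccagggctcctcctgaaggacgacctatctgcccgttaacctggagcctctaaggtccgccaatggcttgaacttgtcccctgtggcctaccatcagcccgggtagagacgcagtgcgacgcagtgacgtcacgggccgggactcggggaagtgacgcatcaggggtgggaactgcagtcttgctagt
*Ndufb8*, chr19:44555393-44555692, minus strand: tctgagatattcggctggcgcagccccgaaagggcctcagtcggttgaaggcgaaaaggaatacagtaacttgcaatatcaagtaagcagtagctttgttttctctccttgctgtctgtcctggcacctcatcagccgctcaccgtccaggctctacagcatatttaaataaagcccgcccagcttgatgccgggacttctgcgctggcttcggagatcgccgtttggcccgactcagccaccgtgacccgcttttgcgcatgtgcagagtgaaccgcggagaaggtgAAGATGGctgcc
*Ndufs8*, chr19:3912725-3913024, minus strand: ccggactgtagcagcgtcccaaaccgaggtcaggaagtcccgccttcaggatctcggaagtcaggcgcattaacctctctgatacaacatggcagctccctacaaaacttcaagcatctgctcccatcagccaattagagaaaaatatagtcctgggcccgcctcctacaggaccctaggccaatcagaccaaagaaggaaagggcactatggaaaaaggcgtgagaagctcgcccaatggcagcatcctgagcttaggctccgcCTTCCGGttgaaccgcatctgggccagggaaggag
*Ndufa8*, chr2:36049289-36049588, minus strand: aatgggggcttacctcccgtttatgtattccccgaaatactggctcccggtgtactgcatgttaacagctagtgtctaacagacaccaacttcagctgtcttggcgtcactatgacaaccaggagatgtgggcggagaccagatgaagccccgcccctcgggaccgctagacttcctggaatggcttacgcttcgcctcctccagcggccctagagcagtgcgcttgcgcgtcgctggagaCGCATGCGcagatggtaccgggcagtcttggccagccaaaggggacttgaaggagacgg

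The first comparison asked how the members differed between alcohol-fed and pair-fed mice. Of the 33, 31 passed a filter on low values that did not use the diets. At an adjusted p under 0.05 (limma, adjusted over all probe-sets tested), 11 of the 31 were lower on alcohol (35.5%, where 5.98% of all probe-sets tested were lower), 1 was higher (3.23%, against 10.2% of all) and 19 were not called. The 11 were 9 accessory subunits and 2 assembly factors, and none was a core subunit. Their levels on alcohol lay between 47.3% and 84.9% of control. The median log2 change of the 31 was -0.17, while that of all probe-sets tested was 0.05, and 25 of the 31 lay below 0. The 4 alcohol-fed mice were all below the 4 control mice in 14 members (8.14% of all probe-sets tested) and all above them in 2 (15.5% of all). Genes are not independent replicates, and differences between classes of members were not tested.

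Leaving out 1 mouse at a time left between 6 and 10 members lower, and the number was 6 without WA-817, without WC-834 or without WC-840. The share of all probe-sets lower in these smaller fits was not computed, so the counts cannot be set against it. All 11 genes called lower stayed below 0 whichever mouse was left out. For the 10 of them whose groups did not overlap, this could not have been otherwise. In bulk liver, fewer cells of a type and less RNA in each cell cannot be told apart. The mean level of the erythroid markers (2 of 5 read, with *Alas2* tested and lower) was 5.65 to 6.32 in alcohol-fed mice, against 7.12 to 7.27 in control mice. That of 5 endothelial markers, of 6 listed, lay between 8.51 and 8.90 on alcohol and between 8.24 and 8.34 on control diet, with 2 of the 5 called higher. Hepatocyte markers, 4 of 8 read and none called, ranged over 12.67 to 12.76 on alcohol and 12.52 to 12.71 on control diet. Kupffer cell markers, 7 of 8 read and none called, ranged over 7.71 to 8.27 on alcohol and 7.72 to 8.35 on control diet. Stellate cell markers, 5 of 6 read, ranged over 7.63 to 7.76 on alcohol and 7.55 to 7.65 on control diet, with *Lrat* higher (log2 change 0.54, adjusted p = 0.0114 in limma) and *Reln* lower (-0.34, adjusted p = 0.0208). Cholangiocyte markers, 3 of 5 read and none called, ranged over 5.48 to 5.71 on alcohol and 5.53 to 5.71 on control diet. No neutrophil, T and NK or B cell marker passed the filter. The part of these cells in the changes of complex I genes was not tested.

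**Figure D1:**
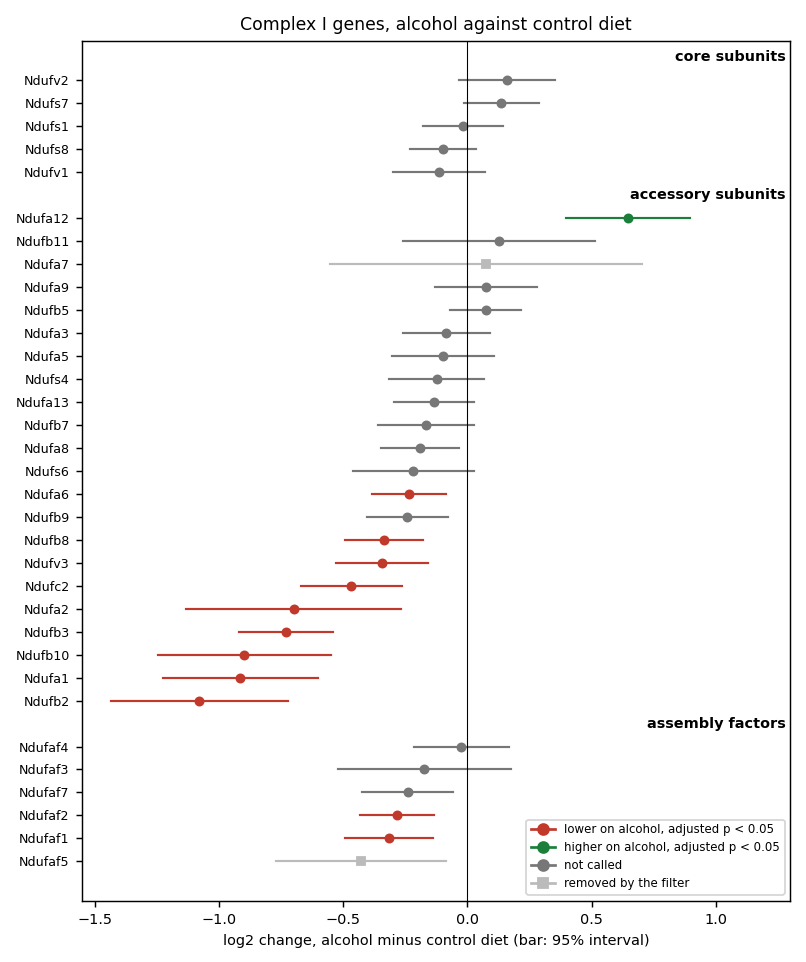
The log2 change of each of the 33 complex I genes is drawn on the horizontal axis (alcohol minus control diet, 4 mice each) with its 95% interval, by class. Red points are the 11 genes lower on alcohol, the green point is the probe-set named *Ndufa12*, grey circles were not called, and squares mark *Ndufa7* and *Ndufaf5*, which the filter removed. The 5 core subunits stay between -0.11 and 0.16.

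The core subunits differed little between the diets. None of the 5 was called in either direction, none had an unadjusted p under 0.05, and their median log2 change was -0.02. *Ndufv1*, which binds NADH and the flavin, read 10.27, 10.18, 10.15 and 10.08 on alcohol, against 10.42, 10.35, 10.20 and 10.16 on control diet. The groups overlapped, and the log2 change was -0.11 (95% interval -0.30 to 0.07, adjusted p = 0.38 in limma). *Ndufv2*, an iron-sulfur subunit beside it, had 10.25, 10.01, 10.36 and 10.23 in alcohol-fed mice and 9.98, 10.02, 10.10 and 10.10 in control mice. WA-817 alone of the alcohol-fed mice lay within the control range, with a change of 0.16 (-0.03 to 0.35, adjusted p = 0.237). *Ndufs1*, the iron-sulfur subunit that carries electrons onward, gave 10.19, 10.05, 10.09 and 9.97 on alcohol and 10.03, 10.07, 10.12 and 10.15 on control diet. Its groups were mixed, with a change of -0.02 (-0.18 to 0.14, adjusted p = 0.897).

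The remaining core subunits, *Ndufs7* and *Ndufs8*, hold the iron-sulfur clusters nearest ubiquinone. *Ndufs7* measured 10.82, 10.89, 10.77 and 10.96 on alcohol, against 10.75, 10.71, 10.70 and 10.72 on control diet. Every alcohol-fed mouse was above every control mouse, with a change of 0.14 (-0.01 to 0.29) and an adjusted p of 0.195 in limma. *Ndufs8* measured 9.89, 9.93, 9.87 and 9.94 on alcohol, against 9.98, 10.02, 10.02 and 10.00 on control diet. Here every alcohol-fed mouse was below every control mouse, but the change of -0.10 (-0.23 to 0.04) was not called (adjusted p = 0.292). Among the core subunits only *Ndufs8* was called under another setting, lower at an adjusted p of 0.0333 without moderation of the variance. These intervals leave room for core changes of up to 0.35 on the log2 scale.

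Accessory subunits held most of the calls, and those of the membrane arm the largest falls. Of 13 membrane arm members, 6 were lower and none higher (46.2% lower, median log2 change -0.24). Over all probe-sets tested, 5.98% were lower and 10.2% higher. Among the 8 tested accessory members of the matrix arm, 3 were lower and 1 higher, with a median of -0.17. The higher one is *Ndufa12*, whose probe-set may not read that gene (described with its values), and without it 3 of 7 were lower (42.9%, median -0.22). *Ndufb2*, a small subunit of the distal membrane arm, read 6.59, 6.22, 6.84 and 7.04 on alcohol, against 7.61, 7.81, 7.75 and 7.84 on control diet. The alcohol-fed mice were spread more widely than the control mice and all lay below them. *Ndufb2* fell by 1.08 on the log2 scale (SE 0.16, adjusted p = 0.00385), which is 2.11-fold lower and the largest fall of any member. It stood at position 88 among the falls of all probe-sets tested.

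*Ndufb3*, also of the distal membrane arm, had 10.26, 10.10, 10.18 and 10.39 on alcohol and 11.01, 10.95, 11.05 and 10.84 on control diet. Its groups were tight and well apart, and with a log2 change of -0.73 ± 0.08 (SE) it had the smallest adjusted p of the members (0.00161). *Ndufb10*, a subunit on the intermembrane side of the membrane arm, had 7.89, 7.53, 7.90 and 8.37 on alcohol and 8.70, 8.89, 8.79 and 8.90 on control diet. WA-836 came nearest to the control mice, and the log2 change was -0.90 ± 0.16 (SE, adjusted p = 0.00718). *Ndufb8*, another distal subunit, had 8.28, 8.24, 8.32 and 8.45 on alcohol and 8.67, 8.63, 8.69 and 8.64 on control diet. The change was smaller, -0.33 ± 0.07 (SE, adjusted p = 0.0129), but again without overlap.

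*Ndufa1*, an X-linked subunit of the membrane arm, gave 7.75, 7.74, 7.61 and 8.29 in alcohol-fed mice, against 8.84, 8.74, 8.80 and 8.67 in control mice. Apart from WA-836 the alcohol-fed mice were close together, and the log2 change was -0.91 ± 0.14 (SE, adjusted p = 0.00442). *Ndufc2*, whose product also sits in the membrane arm, gave 8.21, 8.46, 8.54 and 8.39 in alcohol-fed mice, against 8.94, 8.82, 8.74 and 8.95 in control mice. No value overlapped, with a change of -0.47 ± 0.09 (SE, adjusted p = 0.0101). At the thresholds of the study, an unadjusted P under 0.0001 and at least 1.5-fold, *Ndufb2*, *Ndufa1* and *Ndufb3* were the 3 members lower (0.757% of all probe-sets tested were) and none was higher (1.01% of all). The 6 membrane arm genes *Ndufa1*, *Ndufb2*, *Ndufb3*, *Ndufb8*, *Ndufb10* and *Ndufc2* were called lower in each of 17 other settings of the fit, and the other 5 were not.

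**Figure D2:**
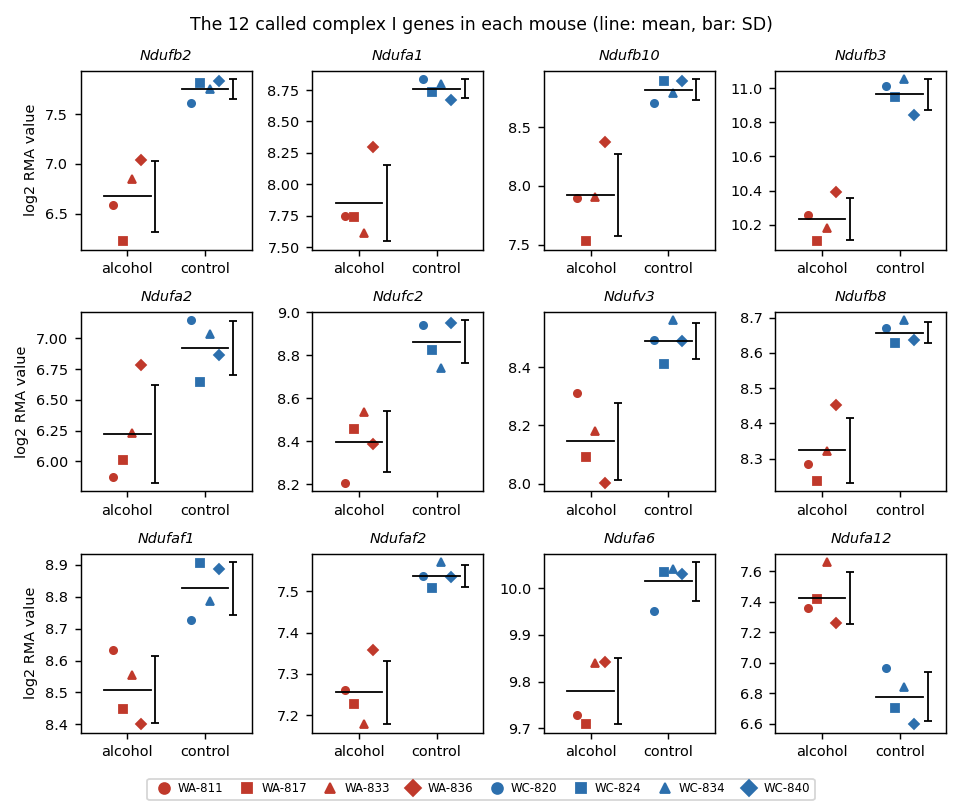
Each panel shows 1 called gene, with the log2 RMA value of each mouse on the vertical axis (4 alcohol-fed mice in red, 4 control mice in blue), the group mean as a line and the SD as a bar. Axes differ between panels and do not start at 0. In 10 of the 11 genes that fell the groups do not overlap, the exception being *Ndufa2*. Of all probe-sets tested, 8.14% had every alcohol-fed mouse below every control mouse. The genes shown were picked by their adjusted p on these same values, so their separation is no further support. The panel headed *Ndufa12* shows the probe-set that was higher, which cannot be assigned to that gene.

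The matrix arm members with a call changed less firmly. *Ndufa2*, a thioredoxin-like subunit of the NADH-oxidizing end, measured 5.87, 6.01, 6.23 and 6.78 on alcohol and 7.15, 6.64, 7.04 and 6.86 on control diet. WA-836 lay above WC-824, so the groups overlapped, and the log2 change was -0.70 ± 0.19 (SE, adjusted p = 0.0375 in limma). *Ndufv3*, a small subunit of that end, measured 8.31, 8.09, 8.18 and 8.002 on alcohol and 8.49, 8.41, 8.56 and 8.49 on control diet. Every alcohol-fed mouse was below every control mouse, with a change of -0.34 ± 0.08 (SE, adjusted p = 0.0228). *Ndufa6*, which binds the mitochondrial acyl carrier protein, measured 9.73, 9.71, 9.84 and 9.84 on alcohol and 9.95, 10.03, 10.04 and 10.03 on control diet. The change of -0.24 ± 0.07 (SE, adjusted p = 0.0416) was the smallest of the called falls, without overlap. The call ended for *Ndufa6* when any mouse but WA-833 was left out, for *Ndufa2* without any of WA-811, WA-817, WA-833, WC-820, WC-834 and WC-840, and for *Ndufv3* without any of WA-817, WA-836, WC-820, WC-834 and WC-840.

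*Ndufa12*, an accessory subunit of the matrix arm, was the single member called higher. Its probe-set read 7.36, 7.42, 7.66 and 7.26 on alcohol, against 6.97, 6.71, 6.84 and 6.596 on control diet. The groups were apart, with a log2 change of 0.65 ± 0.11 (SE), 1.57-fold, at an adjusted p of 0.00674 in limma. This value cannot be assigned to the gene itself. Probe-sets are numbered along the genome, and 99.39% of 14941 probe-sets checked lay on the chromosome of the 10 probe-sets on either side. The probe-set of *Ndufa12* lies among probe-sets of chromosome 5 while the gene is on chromosome 10, and the other 32 members matched their neighbours. The probe-sets next to it were those of *Rabgef1* (log2 change 0.33, adjusted p = 0.026) and *Tmem248* (0.35, adjusted p = 0.0162), both higher on alcohol. In RefSeq the pseudogene *Ndufa12-ps* lies within the span of *Rabgef1*, and which of these transcripts the probes read was not tested. Without this probe-set no member was called higher.

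The other 11 tested accessory subunits were not called. Their log2 changes ran between -0.24 and 0.13, with 8 below 0 and 3 above, and their adjusted p between 0.0509 and 0.661. *Ndufb9*, with 9.90, 9.89, 9.87 and 9.78 on alcohol and 10.08, 9.98, 10.14 and 10.21 on control diet, was nearest to the threshold. Its groups did not overlap, with a change of -0.24 (95% interval -0.41 to -0.08), and it was called lower in 4 of the 17 other settings. *Ndufa8*, a subunit facing the intermembrane space, also had all alcohol-fed mice below the control mice (change -0.19, adjusted p = 0.0914). At the other end, *Ndufb11* (0.13), *Ndufb5* and *Ndufa9* (0.07 each) had changes above 0 with overlapping groups. *Ndufa7* did not pass the filter, and its groups overlapped widely (change 0.08, 95% interval -0.55 to 0.70).

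Among the assembly factors 2 of the 5 tested were lower (40%, against 5.98% of all probe-sets tested). Their median log2 change was -0.24, against 0.05 over all probe-sets tested. *Ndufaf1*, which acts on the membrane arm during assembly, had 8.63, 8.45, 8.56 and 8.40 on alcohol, against 8.73, 8.90, 8.79 and 8.89 on control diet. The groups were apart, with a change of -0.32 ± 0.08 (SE, adjusted p = 0.0256). *Ndufaf2*, a paralogue of *Ndufa12* that acts late in assembly, had 7.26, 7.23, 7.18 and 7.36 on alcohol, against 7.54, 7.51, 7.57 and 7.54 on control diet. The control mice were nearly equal and all higher, and the change was -0.28 ± 0.07 (SE, adjusted p = 0.0207). These calls were lost for *Ndufaf1* without any of WA-817, WA-836, WC-824, WC-834 or WC-840, and for *Ndufaf2* without any of WA-817, WC-824, WC-834 and WC-840. *Ndufaf7*, a methyltransferase, had no overlap but was not called (-0.24, adjusted p = 0.0752), and *Ndufaf3* (-0.17) and *Ndufaf4* (-0.02) had overlapping groups. *Ndufaf5*, which the filter removed, read 4.39, 4.67, 4.92 and 4.93 on alcohol and 5.30, 5.05, 4.95 and 5.32 on control diet. All alcohol-fed mice were lower, but in the fit without the filter the change of -0.43 had an adjusted p of 0.176.

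The mice were also compared by the mean difference of each class from the control mean of its genes, as a description. Over the 5 core subunits the alcohol-fed mice lay between -0.02 and 0.05 (mean 0.01 ± 0.03, SD, n = 4). Over the 21 tested accessory subunits they lay between -0.34 and -0.20 (-0.29 ± 0.06), against -0.04 to 0.06 in control mice. Over the 5 tested assembly factors they lay between -0.31 and -0.13 (-0.21 ± 0.07), against -0.06 to 0.08 in control mice. The 2 groups were thus apart for accessory subunits and assembly factors and not for core subunits. For the 13 membrane arm members the alcohol-fed mice averaged -0.39 ± 0.09, and for the 8 accessory members of the matrix arm -0.12 ± 0.04. Without the *Ndufa12* probe-set the last value was -0.23 ± 0.04 over 7 genes, and that of all accessory subunits was -0.33 ± 0.07. Of the 11 genes that fell, WA-836 had the highest value among alcohol-fed mice in 8, and its mean over them was -0.39, while WA-817 was lowest in 5 (mean -0.71).

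**Figure D3:**
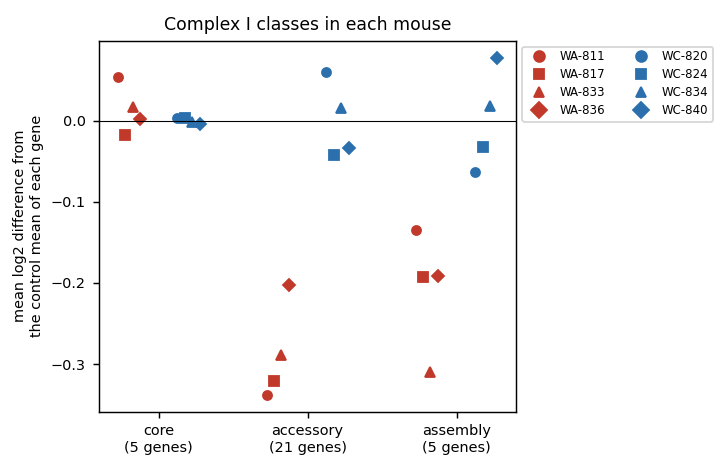
For each mouse the vertical axis gives the mean log2 difference from the control mean over the tested core, accessory and assembly genes, with alcohol-fed mice in red and control mice in blue. The alcohol-fed mice lie between -0.34 and -0.20 for accessory subunits and between -0.02 and 0.05 for core subunits.

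A pair of probe-sets named for a complex I subunit together with other genes were left out of the members. The probe-set of *Ndufa10*, which also names olfactory receptor genes, changed by -0.02 on the log2 scale (adjusted p = 0.849 in limma). That of *Ndufa11* and its copy *Ndufa11b* read 8.004, 9.45, 9.52 and 9.08 on alcohol, against 9.64, 9.58, 9.52 and 9.60 on control diet. WA-811 was far below the other mice, and the change of -0.57 was not called (adjusted p = 0.207).

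Outside the named members, 9 assembly factors of complex I with other symbols were tested, and 2 were lower (22.2%, against 5.98% of all probe-sets tested). *Dmac1*, a factor for the distal membrane arm, had 7.996, 8.14, 7.74 and 7.97 on alcohol, against 8.23, 8.50, 8.52 and 8.74 on control diet. Its groups did not overlap (log2 change -0.54 ± 0.12, SE, adjusted p = 0.0186), and the related *Dmac2* changed by -0.34 ± 0.09 (SE, adjusted p = 0.0267). *Acad9* and *Ecsit*, which act together with *Ndufaf1*, were not called (-0.09 and -0.20). Of 10 regulators of mitochondrial genes none was called. *Ppargc1a*, the coactivator of mitochondrial biogenesis, had 7.64, 6.73, 6.91 and 7.32 on alcohol, against 6.57, 6.56, 6.79 and 6.42 on control diet, with WA-817 within the control range (0.57 ± 0.18, SE, adjusted p = 0.0661). *Nrf1* (0.18), *Gabpa* (0.04), *Esrra* (0.08) and *Tfam* (-0.10) were likewise not called.

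Genes of the other respiratory complexes were set beside the members. Of 28 genes of complexes II to V, 23 passed the filter. Of these 23, 9 were lower and none higher, with a median log2 change of -0.29. Over all probe-sets tested, 5.98% were lower and 10.2% higher, with a median of 0.05. Complex II had no call among 4 genes (median -0.09). Complex III had 3 lower of 6 (median -0.22), *Uqcr10*, *Uqcrfs1* and *Cyc1*. Complex IV had 3 lower of 5 tested (median -0.52), *Cox4i1*, *Cox6a1* and *Cox7a2*. With the complex IV genes that the filter removed, the median over 10 genes was -0.39. ATP synthase had 3 lower of 8 (median -0.15), *Atp5e*, *Atp5g3* and *Atp5mpl*. The largest falls were 1.04 for *Uqcr10* and 1.02 for *Atp5e*. Among the genes not called were *Atp5a1* (-0.06), *Atp5b* (0.02), *Uqcrc1* (0.07) and *Uqcrc2* (-0.09). These genes were picked after their values were seen, and the falls were not compared by size or role of the subunit. Of 66 mitochondrial ribosomal proteins 14 were lower (21.2%) and 1 higher (1.52%), with a median of -0.11.

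**Figure D4:**
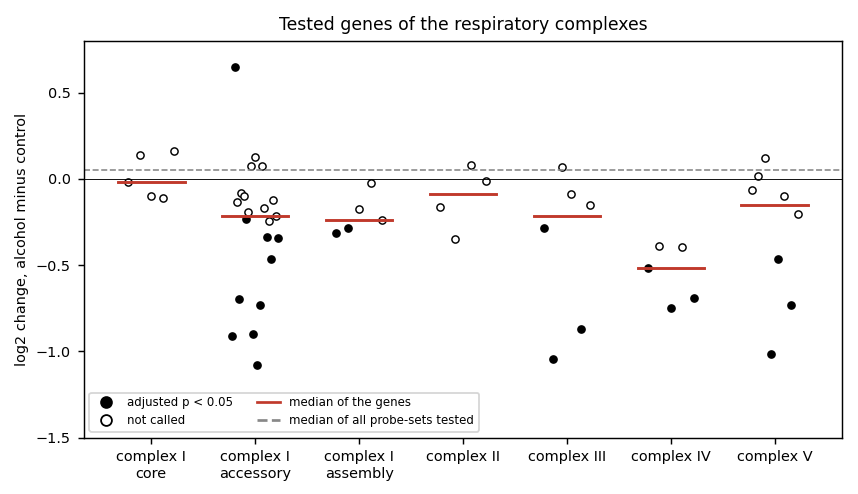
Each point is the log2 change (alcohol minus control diet) of 1 tested gene of complex I, by class, or of complexes II to V. Filled points passed an adjusted p of 0.05, red bars are medians, and the dashed line is the median of all probe-sets tested (0.05). The medians run between -0.52 for complex IV and -0.02 for the core subunits of complex I.

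Other mitochondrial genes did not all move in 1 direction. Of 14 listed genes of import, matrix and outer membrane, 8 were read and tested. Of these, 6 lay below 0, with a median log2 change of -0.09, against 0.05 over all probe-sets tested. *Timm44* of the import motor was lower (-0.36 ± 0.08, SE, adjusted p = 0.02 in limma) and the outer membrane channel *Vdac1* higher (0.28 ± 0.08, SE, adjusted p = 0.0373). Citrate synthase, *Cs*, a matrix enzyme often used as a measure of mitochondrial content, changed by -0.08 (adjusted p = 0.599). In these livers the mean of the 8 genes lay between 8.67 and 8.85 on alcohol and between 8.76 and 8.90 on control diet, so the groups overlapped.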

How the data were processed

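Liver RNA of 8 wild type mice, 4 alcohol-fed and 4 pair-fed, was hybridized to Affymetrix mouse exon arrays. The deposited log2 values were made by the authors with RMA in the Affymetrix Expression Console, whose version is not given in the sources used here. The table holds 23332 probe-sets, of which 14996 carry 1 symbol in the annotation of the array, 1019 several and 7317 none. Each member had 1 probe-set. As in the study's methods, 10430 probe-sets were kept, here those with the highest fourth-highest value over the 8 arrays. A linear model with the diet as its only term (limma 3.58.1 under R 4.3.3, leaving 6 residual degrees of freedom) compared the diets, with default moderation and Benjamini-Hochberg adjustment over all probe-sets kept. For members that the filter removed, an unfiltered fit was used. Simulated data with known changes were used to test the code.

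Every called member and every core subunit was given in full and the others by counts and ranges. The members, classes, arms and lists were chosen with earlier results of these data known. Assigning members to the matrix and membrane arms and to roles rests on textbook knowledge. Chromosomes and promoters came from RefSeq on GRCm38.p6. The deposited values carry no depth, and the number of mice limits the precision. Other filters, normalizations and variance models, and leaving out each mouse, were tried. The methods give a final alcohol content slightly above that of the labels, which is used here.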

Additional observations from a re-analysis of the deposited data

Results flagged for a closer look

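Among 70 groups of 4 mice (2 diets for each of the 33 members and the 2 shared probe-sets), 2 held a mouse far from the other 3 relative to the range of its group. Chance marks about 1 group in 20. For *Ndufa6* the control mouse WC-820 read 9.95 while the other control mice read 10.03 to 10.04. For *Ndufb5* the control mouse WC-840 read 9.91, against 9.81 to 9.83 in the others.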

How the results depend on the processing

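No paired analysis was possible because the replicate numbers are not shared between the diets and no label says which mice were fed as a pair. The number of members lower on alcohol (11) was 6 without the filter, 12 with quantile normalization, 14 with median centring (where 1.22%, 8.03% and 8.49% of all probe-sets tested were lower, against 5.98% as reported), 3 at the study's thresholds and between 6 and 10 when 1 mouse was left out. For the fits without 1 mouse the share of all probe-sets lower was not computed. The number higher (1) was 0 at the study's thresholds and 0 without the *Ndufa12* probe-set, an alternative added after seeing the data. Over all probe-sets the share of calls that were higher was 62.9% as deposited, 51.8% with quantile normalization and 45.1% with median centring, while 25 of 31 members lay below 0 under each. With median centring the median change was -0.23 for all members and -0.077 for the core subunits, and leaving out 1 mouse gave -0.057 to 0.018 for the core. The sign turned for 3 members that were not called. Leaving out 1 mouse gave *Ndufs1* -0.057 to 0.018 (above 0 without WA-836 or WC-840), *Ndufa7* -0.10 to 0.30 (below 0 without WA-811, WA-836 or WC-834) and *Ndufaf4* -0.083 to 0.030 (above 0 without WA-811 or WC-840). The causes were not tested. Of the 594 values of single members under the alternatives, 538 kept their direction and side of the threshold, 42 lost the call and 7 gained one. Most of these values belong to members without a call, which had none to lose.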
